A study of Mus musculus with 10 samples.

Results

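The genes of the hair cell (HC) ribbon synapse were followed through old inner ear: Otof, Slc17a8, Cacna1d, Cacnb2, Ctbp2, Bsn, Pclo and Rims2, 8 genes of the 32285 in the count tables, taken by their symbols. All libraries came from wild-type CBA/J mice of 22 months, an inbred strain widely used in studies of aging ears, and each pooled the cochlear or the vestibular sensory epithelium of 7 to 8 mice, of both sexes in the study. A library is a droplet-based (10x 3′) single-cell library, in which each transcript is counted once through its unique molecular identifier (UMI). The study is about how vestibular HCs (vHCs) and cochlear HCs (cHCs) change with age, but only old libraries were used here, so no value below is a change with age. Replicates 1 and 2 of each organ are the same cells, with all 1313 barcodes of cochlear replicate 2 and 1633 of the 1641 of vestibular replicate 2 also in replicate 1, and only replicate 1 was used, which leaves replicates 1, 3, 4 and 5 of each organ.

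A ribbon synapse holds a protein ribbon that tethers vesicles beside calcium channels, so that an HC can release glutamate steadily in step with its receptor potential. Inner hair cells (IHCs) carry most of the sound signal to the afferent neurons, while outer hair cells (OHCs) amplify vibration and have sparse afferent contacts. In the vestibular organs, type II HCs signal through ribbon synapses onto bouton endings, and type I HCs sit in a calyx ending that also receives a signal without vesicles.

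Among the members, otoferlin (Otof) is the calcium sensor of vesicle release and VGLUT3 (Slc17a8) loads vesicles with glutamate. Cav1.3 (Cacna1d) is the pore of the presynaptic calcium channel and Cacnb2 encodes an auxiliary beta subunit. The ribbon itself is built of ribeye, a product of Ctbp2. Bassoon (Bsn) and piccolo (Pclo) are large scaffolds of the active zone, and RIM2 (Rims2) links vesicles to calcium channels.

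All 8 gene identifiers matched GENCODE M21 on GRCm38. Otof lies at chr5:30367062-30461932 on the minus strand and Pclo at chr5:14514918-14863459 on the plus strand. Slc17a8 lies at chr10:89574020-89621253 (minus), Cacna1d at chr14:30039939-30491455 (minus), Cacnb2 at chr2:14603088-14987908 (plus), Ctbp2 at chr7:132987563-133124354 (minus), Bsn at chr9:108096022-108190384 (minus) and Rims2 at chr15:39198261-39684372 (plus).

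Ctbp2 needs a caution that its annotation shows. A transcript of 988 codons, of which 1687 bases lie in 1 exon, starts at position 133015248 inside the gene and is the length of ribeye, whereas the transcripts of 445 and 420 codons, which encode the nuclear corepressor CtBP2, start near the far end at 133123367 and 133123166. The 3′ ends of these 3 transcripts lie within 43 bases of each other, so a count of 3′ ends cannot tell ribeye from the corepressor, and every Ctbp2 value below is the sum of both.

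RefSeq start sites on GRCm38.p6 were found for 6 of the 8 members, all but Otof and Rims2. The 250 bases before the start are shown for the ribeye start of Ctbp2 and for the genes whose level differed most between HC types or organs, so that the start regions of the ribbon protein, the transporter, the channel pore (both starts) and a scaffold can be set side by side. Capitals mark an E-box motif, CAGCTG, which reads alike on both strands, and a related motif, CAGATG, which appears as CATCTG when it lies on the opposite strand. No marked motif overlaps another.
Ctbp2, ribeye start, chr7:133015248-133015497, minus strand: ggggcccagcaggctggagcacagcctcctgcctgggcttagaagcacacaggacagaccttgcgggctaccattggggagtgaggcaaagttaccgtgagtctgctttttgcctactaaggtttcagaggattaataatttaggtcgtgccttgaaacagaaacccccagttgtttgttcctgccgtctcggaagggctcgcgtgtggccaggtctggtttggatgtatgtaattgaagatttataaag
Slc17a8, upstream start, chr10:89621250-89621499, minus strand: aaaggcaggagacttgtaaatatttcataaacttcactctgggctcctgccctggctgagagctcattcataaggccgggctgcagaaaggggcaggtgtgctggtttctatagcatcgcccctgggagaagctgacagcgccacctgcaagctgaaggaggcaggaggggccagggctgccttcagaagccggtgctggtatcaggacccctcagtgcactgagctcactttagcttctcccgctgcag
Cacna1d, upstream start, chr14:30491157-30491406, minus strand: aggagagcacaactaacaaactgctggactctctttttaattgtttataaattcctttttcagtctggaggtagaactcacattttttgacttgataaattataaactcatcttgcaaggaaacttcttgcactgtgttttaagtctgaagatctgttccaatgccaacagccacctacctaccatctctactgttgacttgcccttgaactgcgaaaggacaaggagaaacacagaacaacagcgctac
Cacna1d, inner start, chr14:30353487-30353736, minus strand: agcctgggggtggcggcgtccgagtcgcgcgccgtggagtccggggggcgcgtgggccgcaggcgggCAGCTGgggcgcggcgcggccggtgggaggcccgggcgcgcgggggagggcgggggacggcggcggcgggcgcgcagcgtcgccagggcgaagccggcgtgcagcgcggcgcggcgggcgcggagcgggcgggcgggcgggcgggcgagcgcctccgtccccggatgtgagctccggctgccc
Pclo, chr5:14514668-14514917, plus strand: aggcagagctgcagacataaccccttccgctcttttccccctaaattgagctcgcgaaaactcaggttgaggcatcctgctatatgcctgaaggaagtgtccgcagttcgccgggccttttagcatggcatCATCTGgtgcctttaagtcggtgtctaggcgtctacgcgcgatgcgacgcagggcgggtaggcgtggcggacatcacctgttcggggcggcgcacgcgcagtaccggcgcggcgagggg

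These windows differ in base composition. The inner start of Cacna1d has 50 CG pairs in 250 bases and is 86.4% G or C, its upstream start has 2 CG pairs and is 39.6% G or C, and the ribeye and Slc17a8 windows have 7 and 5 CG pairs. The median over the 32851 windows of the table is 6 CG pairs. CAGCTG stands once in the inner Cacna1d window and CATCTG once in the Pclo window, while neither is in the ribeye window, the upstream Slc17a8 window or the upstream Cacna1d window. Slc17a8 has a second listed start inside the gene, not printed here, whose window at chr10:89599816-89600065 holds CATCTG once. Of all windows, 13.0% hold CAGCTG, and 14.44% hold the related motif in either orientation.

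The 8 libraries used held 2738036 to 26974948 UMIs and, after filters, 571 to 5438 cells. Cells were clustered without the 8 members and without the pathway genes listed below, and clusters were named from listed markers, so that every name below stands for cells like that type. Whether a cluster with HC markers was kept also rested on its leading genes, and there members and pathway genes did count. This gave 123 named cHCs, of which 44 were IHCs and 79 OHCs, and 1776 vHCs, of which 1502 were type I and 274 type II. Of the type I HCs, 271 formed a subcluster rich in Ocm, which encodes oncomodulin and marks type I HCs of the striola and central zones. Clusters with HC markers that also led with genes of other cells, or with too few type markers, were set aside (99 cells in the cochlea, 495 in the vestibule). In the cochlea these were 19, 44, 10 and 26 cells of replicates 1, 3, 4 and 5. Of the 99, 69 formed a cluster with the IHC markers Calb2 in 95.65% and Atp2a3 in 89.86% of cells. It also had Gjb2 in 92.75% and Sox2 in 82.61%, both listed as supporting cell markers. Shares of IHCs below count named cells only. Apart from the repeated replicate, a pair of libraries shared at most 41 barcodes. OHCs were shallow, with a median of 2671 UMIs per cell against 10370 for IHCs, and the medians of type I and type II HCs were 3932 and 4742.

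A level below is the number of UMIs of a gene per 1000000 UMIs (CPM) in the summed cells of a type in 1 library, given for libraries with at least 5 such cells. The IHCs reached 5 cells only in replicates 3 (33 cells) and 4 (5 cells), and the OHCs numbered 24, 33, 8 and 14 in replicates 1, 3, 4 and 5. Tests used edgeR's quasi-likelihood test on the summed UMIs with Benjamini-Hochberg adjustment over all genes tested, and a gene was called at an adjusted p under 0.05. Because cell types were found from other genes of the same cells, many genes pass between types; the share of all tested genes that was called is therefore given beside each count of members.

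Between IHCs and OHCs, 4 of the 8 members could be tested. The sensor Otof, the transporter Slc17a8 and the scaffold Rims2 were 13.9-fold, 26.7-fold and 12.9-fold higher in IHCs, whereas the channel pore Cacna1d was 4.49-fold lower in IHCs than in OHCs. The other 4 members did not pass the filter on low counts in this comparison. Slc17a8 and Rims2 passed this filter through their IHC sums alone, since their OHC sums were too low for it. For Slc17a8 and Rims2, entry into the test thus largely fixed the direction and the lack of overlap.

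Otof stood at 2101 and 2158 CPM in the IHCs of replicates 3 and 4. In the OHCs it stood at 68.3, 261, 36.5 and 148 CPM in replicates 1, 3, 4 and 5, which rest on 5, 25, 1 and 7 UMIs. Both IHC libraries lay above all 4 OHC libraries, and the log2 difference was 3.79 ± 0.41 (SE; edgeR, adjusted p = 7.52e-07). Without replicate 3, which leaves 1 IHC library of 5 cells, it was 4.52.

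Slc17a8 showed the widest gap between these types. The IHCs had 2251 and 1504 CPM in replicates 3 and 4, and the OHCs had 13.7, 125, 36.5 and 63.6 CPM in replicates 1, 3, 4 and 5. The groups did not overlap, and the log2 difference was 4.74 ± 0.44 (SE; edgeR, adjusted p = 1.84e-07).

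Cacna1d was ordered the other way round. It reached 793, 575, 1677 and 742 CPM in the OHCs of replicates 1, 3, 4 and 5 and 218 and 170 CPM in the IHCs of replicates 3 and 4. Every OHC library lay above both IHC libraries, with a log2 difference of -2.17 ± 0.39 (SE; edgeR, adjusted p = 3.49e-04). With at least 20 cells asked of each sum, which leaves 1 IHC and 2 OHC libraries, the difference was -1.59 and was no longer called (adjusted p = 0.269).

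Rims2 stood at 203 and 288 CPM in the IHCs of replicates 3 and 4. The OHCs of the 4 libraries together held 4 Rims2 UMIs, or 13.7, 10.4, 0 and 42.4 CPM in replicates 1, 3, 4 and 5. The log2 difference was 3.69 ± 0.60 (SE; edgeR, adjusted p = 1.11e-04), and it was 4.34 without replicate 5.

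Thus 3 members were called higher and 1 lower in IHCs, where 25.4% of the 1733 genes tested were called, 11.5% as higher and 13.9% as lower. The libraries of the 2 types did not overlap for the same 4 members, beside 40.9% of all genes tested. For Slc17a8 and Rims2 this was largely fixed by the filter. Of the untested members, Ctbp2 averaged 61.1 ± 31.0 CPM in IHCs (SD, n = 2) and 79.4 ± 32.8 in OHCs (SD, n = 4), Cacnb2 37.7 ± 16.3 and 37.3 ± 32.8, Bsn 12.7 ± 0.548 and 11.3 ± 8.80, and Pclo 70.0 ± 11.99 and 29.7 ± 28.2. Their libraries overlapped between the types, and no difference was tested. Bsn rests on 5 and 3 UMIs. Markers of connective tissue also moved with these types, and those of blood were high in 1 OHC library. The 6 erythroid markers summed to 8433, 209, 0 and 106 CPM in the OHCs of replicates 1, 3, 4 and 5. In the IHCs of replicates 3 and 4 they summed to 95.3 and 0 CPM, within the OHC range. The 6 connective tissue markers summed to 164 to 1548 CPM in OHC libraries and 0 to 61.5 CPM in IHC libraries. Their part in these differences was not tested.

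**Figure D1:**
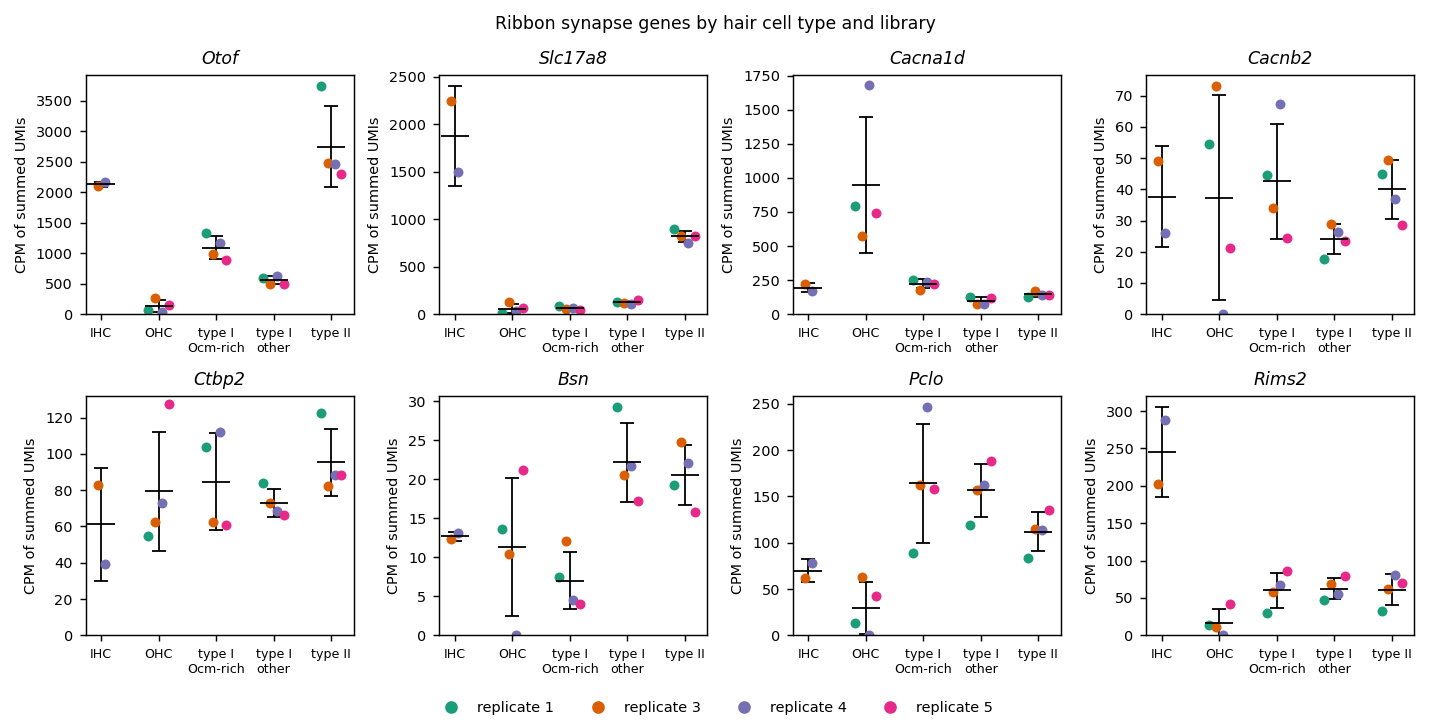
Level of each ribbon synapse gene (CPM of summed UMIs, linear axes from 0) in IHCs, OHCs, Ocm-rich and other type I HCs and type II HCs. Points are libraries coloured by replicate, and bars are the mean and SD of 4 libraries (2 for IHCs). Otof is highest in type II HCs and IHCs, Slc17a8 and Rims2 in IHCs, and Cacna1d in OHCs.

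In the vestibular organs the same pair of genes, the release sensor and the transporter, separated the types. No other member passed the unpaired test, and Pclo passed only with the library as a paired block or without replicate 1. Otof was 3.93-fold and Slc17a8 6.93-fold lower in type I than in type II HCs. Both were lower in type I in 4 of 4 libraries.

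Otof stood at 752, 575, 721 and 591 CPM in the type I HCs of replicates 1, 3, 4 and 5, and at 3741, 2482, 2454 and 2302 CPM in the type II HCs. The lowest type II library lay far above the highest type I library, and the log2 difference, type I minus type II, was -1.98 ± 0.18 (SE; edgeR, adjusted p = 9.36e-09). Replicate 1 stood apart with the highest level of Otof in type II HCs.

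Slc17a8 stood at 120, 107, 99.4 and 124 CPM in type I HCs of replicates 1, 3, 4 and 5 and at 895, 819, 748 and 821 CPM in type II HCs. These levels varied little between libraries, and the log2 difference was -2.79 ± 0.16 (SE; edgeR, adjusted p = 3.71e-12). When cells were instead typed one by one from their own markers, both differences shrank, to -0.99 for Otof and -1.83 for Slc17a8, and both were still called.

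Pclo had the opposite sign. It stood at 113, 158, 177 and 181 CPM in type I HCs of replicates 1, 3, 4 and 5 and at 83.7, 115, 114 and 136 CPM in type II HCs. Type I was higher in 4 of 4 libraries but the ranges overlapped, and at a log2 difference of 0.53 ± 0.19 (SE) edgeR's adjusted p was 0.0547. With the library as a paired block, which is apt since both types come from the same animals, the difference was 0.55 and was called (adjusted p = 6.94e-04). It was also called without replicate 1, at 0.56 (adjusted p = 0.0173).

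The other 5 members did not pass. Cacna1d averaged 122 ± 28.2 CPM in type I HCs against 145 ± 16.3 CPM in those of type II (SD, n = 4 each), with a log2 difference of -0.25 and a 95% interval of -0.70 to 0.20. Cacnb2 averaged 27.4 ± 4.88 and 40.0 ± 9.32 CPM and was lower in type I in 4 of 4 libraries, with an interval of -1.11 to 0.15. Ctbp2 averaged 75.1 ± 9.73 and 95.3 ± 18.3 CPM and was also lower in type I in 4 of 4 libraries, with an interval of -0.68 to 0.21. Rims2 was at 62.1 ± 15.9 and 61.2 ± 20.9 CPM, and Bsn at 19.2 ± 4.32 and 20.5 ± 3.85 CPM, with intervals of -0.53 to 0.63 and -0.88 to 0.63.

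The 5 markers of supporting cells other than Sox2, which names type II, summed to 99.1 to 174 CPM in type II and 21.6 to 83.9 CPM in type I HCs, and the 6 erythroid markers reached 7304 CPM in a type II library and at most 1510 CPM in type I. Their part in these differences was not tested.

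Between type I and type II, 2 of the 8 members were called in the unpaired test, both lower in type I. In that test 17.6% of 7965 genes were called, 8.07% as higher and 9.53% as lower. The libraries of the types did not overlap for 2 of 8 members and for 19.7% of all genes tested. The median log2 difference was -0.24 over the 8 members and 0.01 over all genes.

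Within type I, the Ocm-rich HCs carried more of the sensor and of the channel pore and less of the transporter than the other type I HCs. Otof was 1.90-fold and Cacna1d 2.23-fold higher, and Slc17a8 was 2.09-fold lower, each in the same direction in 4 of 4 libraries.

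Otof stood at 1327, 983, 1161 and 890 CPM in Ocm-rich HCs of replicates 1, 3, 4 and 5 and at 601, 493, 632 and 501 CPM in the other type I HCs. The groups did not overlap, and the log2 difference was 0.93 ± 0.16 (SE; edgeR, adjusted p = 1.65e-04).

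Cacna1d stood at 252, 179, 238 and 224 CPM in Ocm-rich HCs and at 125, 76.1, 76.9 and 117 CPM in the others, again without overlap. Its log2 difference was 1.16 ± 0.19 (SE; edgeR, adjusted p = 7.99e-05). The Ocm-rich level reached the range of the IHCs but stayed below every OHC library.

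Slc17a8 stood at 81.5, 56.2, 67.3 and 48.8 CPM in Ocm-rich HCs of replicates 1, 3, 4 and 5 and at 131, 118, 106 and 147 CPM in the others. Its log2 difference was -1.06 ± 0.21 (SE; edgeR, adjusted p = 7.00e-04). This direction depends on how the cells were typed. In the setting with cells typed one by one, Ocm itself counted as a type I marker. Any Ocm UMI then made a type I cell Ocm-rich, and cells of any cluster could enter. There the difference turned to 0.71 (edgeR, adjusted p = 0.0245).

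Bsn had too few counts to be tested here, with 9 UMIs in all Ocm-rich HCs and 104 in the others. Its levels were 7.41, 12.04, 4.48 and 4.06 CPM against 29.3, 20.5, 21.7 and 17.2 CPM in replicates 1, 3, 4 and 5. Cacnb2 averaged 42.6 ± 18.4 and 24.0 ± 4.90 CPM (SD, n = 4 each) and was higher in Ocm-rich HCs in 4 of 4 libraries without passing (log2 difference 0.63, interval -0.12 to 1.38). The differences of Ctbp2 (0.10), Pclo (0.06) and Rims2 (-0.06) had intervals of -0.42 to 0.62, -0.44 to 0.56 and -0.67 to 0.55. With the library as a paired block 1180 genes were called in place of 653, with 3 members called either way. Of the 7 members tested 2 were called higher and 1 lower, while 9.41% of 6942 genes were called, 4.72% as higher and 4.68% as lower. Libraries did not overlap for Otof, Cacna1d, Slc17a8 and Bsn, and for 13.5% of all genes tested. The 6 erythroid markers summed to 88.9, 241, 247 and 260 CPM in Ocm-rich HCs of replicates 1, 3, 4 and 5 and to 105, 1293, 1108 and 1887 CPM in the others, lower in 4 of 4 libraries. Their part in these differences was not tested.

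**Figure D2:**
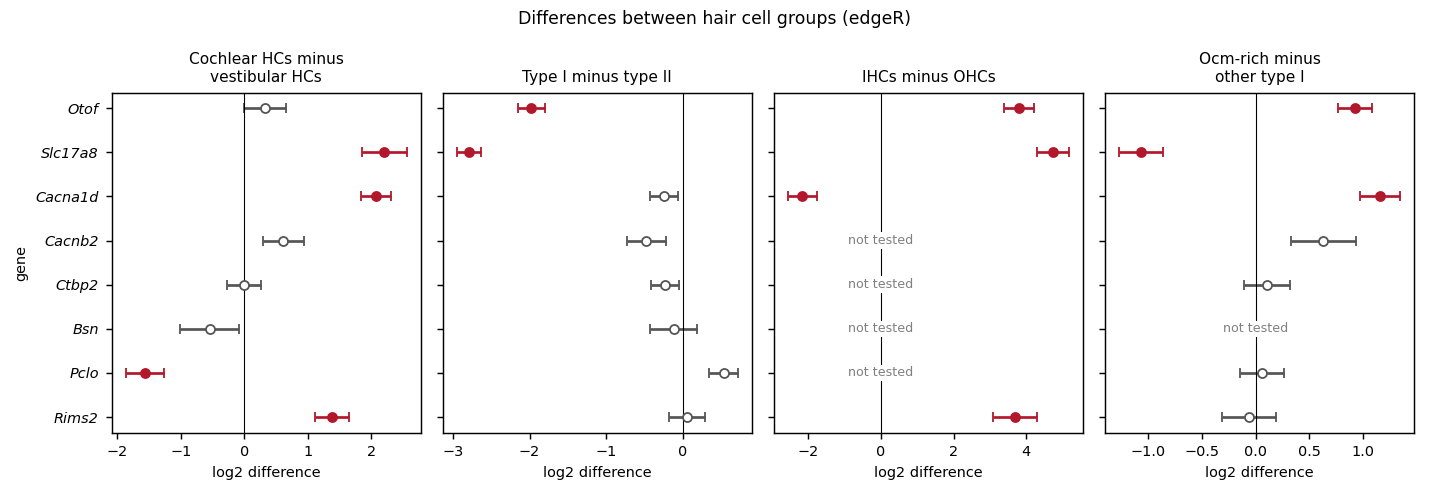
Log2 difference (horizontal axis) of each ribbon synapse gene in 4 comparisons of HC groups, with its standard error as a bar. Filled red points passed an adjusted p of 0.05 in edgeR and open grey points did not. Slc17a8 passed in all 4 comparisons, and Ctbp2 in none of the 3 in which it was tested.

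The organs were then compared over all their named HCs. The cHCs had more Slc17a8, Cacna1d and Rims2 and less Pclo than the vHCs, and Otof, Cacnb2, Ctbp2 and Bsn did not pass. The mix of types differs between cochlear libraries, with IHCs at 7.69%, 50%, 38.5% and 22.2% of the named cHCs in replicates 1, 3, 4 and 5, and the share of type II among vHCs ran from 12.7% to 21.3%. For Otof, Slc17a8 and Rims2, a difference between the organs and a difference in this mix cannot be told apart here. For Cacna1d and Pclo the sums of the types were parted by organ, but only by narrow gaps. Cacna1d was at 170 CPM or more in each IHC and OHC sum of at least 5 cells. It was at most 167 CPM in each type I and type II sum. Ocm-rich type I HCs, however, stood at 179 to 252 CPM, above the lower IHC sum. Pclo was at most 78.5 CPM (6 UMIs) in IHC and OHC sums and at least 83.7 CPM (13 UMIs) in type I and type II sums. At equal depth, its shares of cells did not part IHCs from vHCs. The part of the mix in the differences of Cacna1d and Pclo was not tested.

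Cacna1d stood at 725, 299, 568 and 593 CPM in the cHCs of replicates 1, 3, 4 and 5 and at 147, 106, 111 and 141 CPM in the vHCs. Every cochlear library lay above every vestibular one, and the log2 difference was 2.07 ± 0.24 (SE; edgeR, adjusted p = 3.98e-07), or 4.21-fold. With cells typed one by one it was 1.38. The lowest cochlear value was that of replicate 3, the library with the largest share of IHCs.

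Pclo was the only member called lower in the cochlea, by 2.97-fold. It stood at 24.2, 61.8, 57.8 and 20.1 CPM in cHCs and at 107, 150, 166 and 171 CPM in vHCs of replicates 1, 3, 4 and 5. The groups did not overlap, with a log2 difference of -1.57 ± 0.30 (SE; edgeR, adjusted p = 2.61e-04). Since neurons also use this scaffold, the 6 neuron markers were read beside it. They summed to 30.1 to 96.3 CPM in cHCs and 727 to 1097 CPM in vHCs. In vHCs 722 to 1090 CPM of that was Nefm, a neurofilament gene. The other markers in vHCs were at most 5.63 CPM (Stmn2), 2.49 (Nefh), 1.45 (Elavl3), 0.276 (Tubb3) and 0 (Prph). The 6 markers of myelinating glia went the other way, at 57.8 to 254 CPM in cHCs and 18.2 to 50.0 CPM in vHCs. The part of neuron or glia markers in the Pclo difference was not tested.

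Slc17a8 stood at 217, 1768, 1117 and 1266 CPM in cHCs and at 270, 234, 209 and 285 CPM in vHCs of replicates 1, 3, 4 and 5. Cochlear replicate 1, with 2 IHCs among 26 cHCs, lay within the vestibular range, and the other 3 lay far above it. The log2 difference was 2.20 ± 0.36 (SE; edgeR, adjusted p = 3.76e-05).

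Rims2 was at 48.3, 159, 212 and 211 CPM in cHCs and 41.1, 65.9, 61.3 and 78.4 CPM in vHCs, higher in the cochlea in 4 of 4 same-numbered pairs with replicate 1 again inside the vestibular range. Its log2 difference was 1.38 ± 0.27 (SE; edgeR, adjusted p = 3.84e-04).

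Otof was not called in this test, at 290, 1682, 1598 and 1577 CPM in cHCs and 1330, 915, 1015 and 985 CPM in vHCs of replicates 1, 3, 4 and 5. The log2 difference was 0.33 with a 95% interval of -0.48 to 1.14 (edgeR, adjusted p = 0.508). Without replicate 1 the difference was 0.76 and was called (edgeR, adjusted p = 0.00424). With replicate 1 kept, it was also called under other ways of naming the cells, given below. What sets this call was not tested. Only 2 of the 26 named cHCs of cochlear replicate 1 were IHCs, and 19 further cells with HC markers were set aside. The OHCs of this library held 5 of the 24 Otof UMIs of its named cHCs. The cHCs of this library also stood apart in the 6 erythroid markers, at 7486 CPM against 0 to 121 CPM in the other 3 cochlear libraries and 98.4 to 2219 CPM in vHCs, and the part of these markers was not tested.

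Ctbp2 averaged 73.8 ± 34.2 CPM in cHCs and 79.1 ± 10.9 in vHCs (SD, n = 4 each), with a log2 difference of -0.00 and an interval of -0.65 to 0.64. Cacnb2 averaged 40.6 ± 15.4 and 29.8 ± 4.48 CPM (interval -0.17 to 1.40), and Bsn 13.4 ± 4.59 and 19.4 ± 3.76 CPM (interval -1.67 to 0.58). Over the organs 3 members were called higher and 1 lower in the cochlea, while 30.7% of 7661 genes were called, 12.7% as higher and 18% as lower. Libraries did not overlap for 2 members and for 30.4% of all genes tested. The median log2 difference was 0.47 over the 8 members and -0.07 over all genes.

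**Figure D3:**
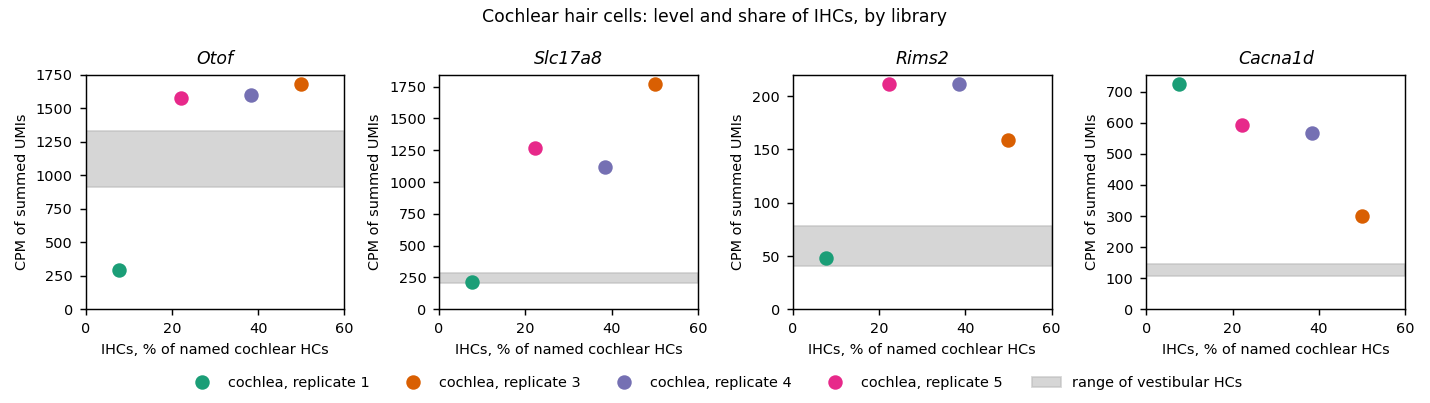
Level of 4 ribbon synapse genes in all named cHCs of a library (vertical axis, CPM) against the share of IHCs among those cells (horizontal axis, %). Each point is a cochlear library, and the grey band spans the 4 vestibular libraries. Replicate 1, with 7.69% IHCs, has the least Otof, Slc17a8 and Rims2 and the most Cacna1d.

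Set in order over the 4 HC types, Otof was highest in type II HCs (mean 2745 CPM), then IHCs (2129), type I (660) and OHCs (129); both IHC values lay just below the lowest type II library, and the other neighbours did not overlap. Slc17a8 ran from IHCs (1878) through type II (821) and type I (113) to OHCs (59.8), where only type I and OHCs overlapped. Cacna1d ran from OHCs (947) to IHCs (194), type II (145) and type I (122), and type I and type II overlapped. Rims2 ran from IHCs (245) to the vHC types at 62.1 and 61.2, which overlapped, and OHCs (16.6), which overlapped type II but not type I HCs.

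Pclo was highest in type I (157) and type II HCs (112), then IHCs (70.0) and OHCs (29.7), and each neighbour in this order overlapped the next except type II and IHCs. For Ctbp2, Cacnb2 and Bsn the means of the 4 types spanned only 61.1 to 95.3, 27.4 to 40.0 and 11.3 to 20.5 CPM, and the libraries of each type overlapped those of at least 1 other. Since IHCs were read in 2 libraries, these places in the order are a description.

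Shares of cells with a UMI were read as counted and at equal depth. Otof had a UMI in 100% of IHCs, 99.3% of type II, 81.1% of type I and 21.5% of OHCs, and, with each cell thinned to 1000 UMIs, in 79.0%, 84.7%, 43.1% and 10.1%. In macrophage-like cells, which should lack Otof, it had a UMI in 0.926% of cochlear cells (median 2216 UMIs) and 7.86% of vestibular cells (median 2765 UMIs), and after thinning in 0.926% and 4.07%. Slc17a8 had a UMI in 100%, 85.0%, 27.2% and 8.86% of the same types, and after thinning in 84.2%, 50.4%, 10.5% and 6.33%, against 0 of 324 cochlear macrophage-like cells, which allows a share of up to 0.926%, and 0.542% of the vestibular ones. The low Otof and Slc17a8 shares of OHCs thus stood above those of cochlear macrophage-like cells.

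Cacna1d had a UMI in 87.3% of OHCs, 73.7% of IHCs, 44.2% of type II and 31.4% of type I HCs, and after thinning in 41.8%, 21.1%, 12.8% and 10.3%, against 2.78% and 2.44% of cochlear and vestibular macrophage-like cells. Pclo after thinning was in 13.3% of type I and 12.4% of type II HCs, 13.2% of IHCs and 3.797% of OHCs, against 0.617% and 1.36% of cochlear and vestibular macrophage-like cells, so the lower CPM of Pclo in IHCs than in vHCs was not seen in these shares. Ctbp2 after thinning was in 5.26% to 8.86% of the 4 types and in 3.09% and 1.90% of macrophage-like cells. Bsn reached at most 2.56% of any HC type after thinning and no macrophage-like cell. Cacnb2, whose share before thinning was 34.2% in IHCs and 15.2% in OHCs, had no UMI left in the 38 IHCs after thinning, which allows a share of up to 7.89%.

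Outside the HCs, Otof and Slc17a8 averaged 2.18 and 1.98 CPM over all other cochlear cells, and 24.7 and 5.72 CPM over all other vestibular cells. Vestibular supporting cell-like cells had 96.2 CPM Otof and 18.5 CPM Slc17a8. These levels are far below those of IHCs and type II HCs.

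The calcium channel genes were also found in other classes. Cacna1d averaged 430 CPM and Cacnb2 113 CPM in marginal or dark cell-like cells of the vestibule, which secrete potassium. In the cochlea Cacna1d averaged 308 CPM and Cacnb2 36.2 CPM in connective tissue-like cells. For Cacna1d both means lay above those of IHCs, type I and type II HCs and below that of OHCs.

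Cochlear neuron-like cells carried the scaffold genes. They averaged 146 CPM Pclo, 102 CPM Rims2, 35.1 CPM Bsn and 76.0 CPM Cacnb2, with 0.8 CPM Otof and 0.3 CPM Slc17a8. Their mean Bsn was above that of every HC type, and no neuron-like cluster was found in the vestibule. Ctbp2 averaged 59.4 CPM in cochlear macrophage-like cells, but 3 of the 4 libraries there rest on 4, 2 and 4 UMIs, and the library with 276 of the 324 cells had 21.7 CPM.

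**Figure D4:**
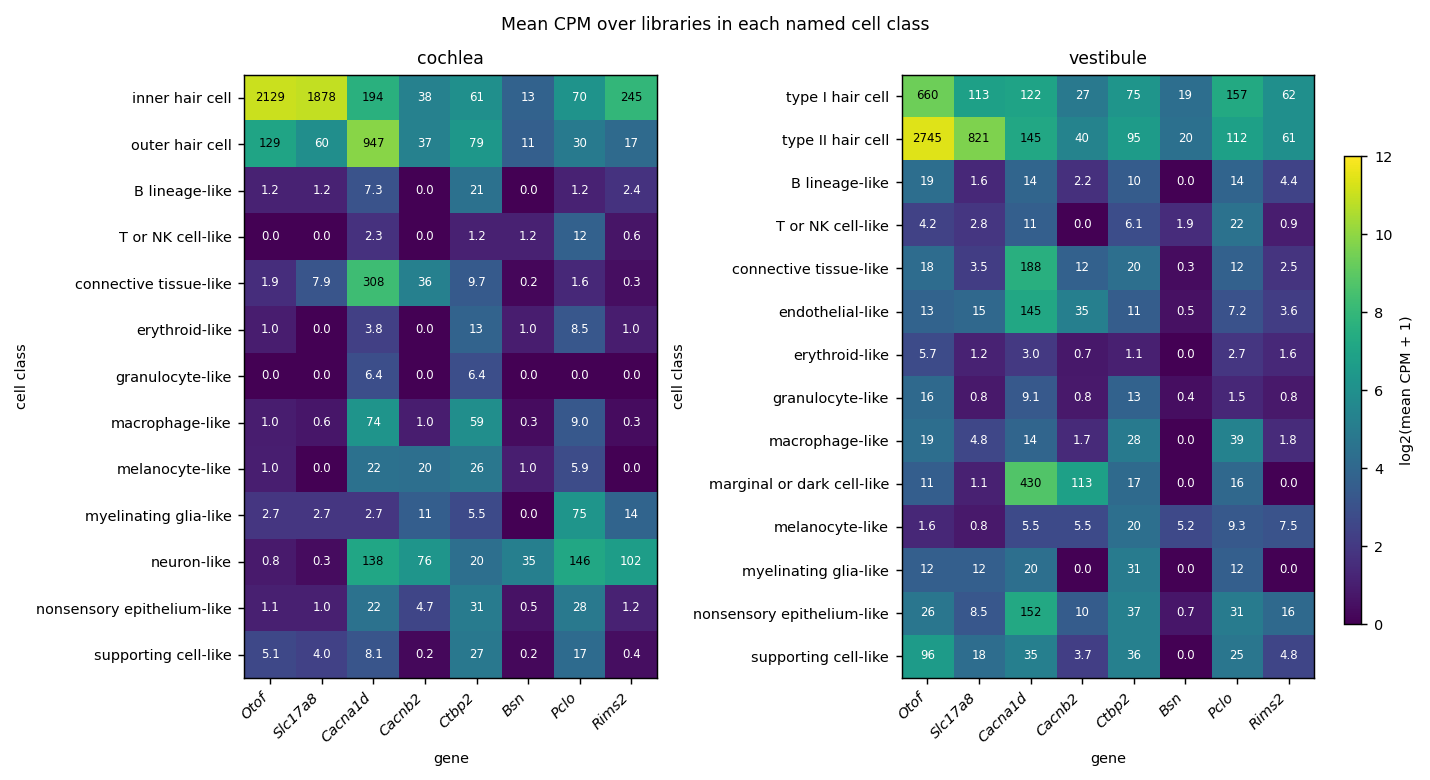
Mean CPM over libraries of each ribbon synapse gene (columns) in each named cell class (rows) of the cochlea and vestibule, with colour giving log2(mean CPM + 1). Otof and Slc17a8 stand out in HCs, whereas Cacna1d is also high in connective tissue-like and marginal or dark cell-like cells and Pclo, Rims2 and Bsn in cochlear neuron-like cells.

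Other genes of the synapse were read in 5 lists, and each count below stands beside the share of all tested genes called in that comparison, which is 30.7% between the organs. Between the organs, of the 14 calcium channel and regulator genes listed 6 were tested, with 1 called higher and 3 lower in cHCs. Cacna2d4, an alpha2delta subunit, was at 23.0 ± 4.25 CPM in cHCs and 620 ± 138 in vHCs (SD, n = 4 each), 23.8-fold lower (edgeR, adjusted p = 2.01e-10), while Cabp1, a calcium-binding regulator, was at 60.1 ± 40.2 and 22.0 ± 2.18 CPM (adjusted p = 7.23e-04). The pore gene Cacna1d, in contrast, was called higher in cHCs.

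Of 14 tested active zone and ribbon genes 4 were higher and 4 lower in cHCs. Rims3 (116 ± 60.03 against 15.5 ± 5.33 CPM), Ppfia3 (85.4 ± 73.9 against 13.3 ± 1.90) and Ppfia4 (80.8 ± 46.2 against 26.8 ± 6.46), a small RIM and liprins, were higher, with edgeR adjusted p-values of 4.14e-07, 1.56e-05 and 1.26e-04. The libraries of Ppfia4 overlapped between the organs. Nrxn3, a neurexin (9.18 ± 10.7 against 539 ± 60.8 CPM), and Kif3a, a kinesin subunit (43.1 ± 12.7 against 259 ± 37.5), were lower, with edgeR adjusted p-values of 2.99e-10 and 1.75e-07. Rims3 and Ppfia3 passed the low-count filter through their cHC sums alone, and Nrxn3 through its vHC sums alone. For Rims3, Ppfia3 and Nrxn3, entry into the test thus largely fixed the direction. Of 23 tested vesicle fusion genes 1 was higher and 6 lower, among them Syt1, a calcium sensor of neuronal synapses, with 1 UMI in all cHCs and 74.1 to 129 CPM in the vHCs (adjusted p = 4.10e-07). All 10 endocytosis genes were tested, and 3 were higher in cHCs. The 5 other vesicular transmitter transporters all fell below the filter in each comparison.

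Between the vestibular types, where 17.6% of all genes were called, 3 of 6 tested channel genes were higher and 1 lower in type I. Cacna2d4 was 12.8-fold higher in type I (749 ± 153 against 71.8 ± 51.1 CPM) and Cacna2d1 6.18-fold lower (22.0 ± 3.90 against 136 ± 46.7 CPM), with edgeR adjusted p-values of 1.46e-10 and 4.43e-09. Both encode alpha2delta subunits of calcium channels. Dnm3 (152 ± 28.4 against 63.6 ± 19.5 CPM), Dnm1 (155 ± 40.8 against 64.0 ± 50.0), both dynamins of vesicle retrieval, and the vesicle protein Sv2b (43.8 ± 2.02 against 18.0 ± 5.86) were higher in type I, with adjusted p-values of 2.70e-05, 2.34e-04 and 3.53e-04, and the liprin Ppfia4 was lower (22.2 ± 4.18 against 44.6 ± 17.5 CPM; adjusted p = 0.0163). The libraries of Dnm1 overlapped between the types. Sv2b passed the low-count filter through its type I sums alone, which largely fixed its direction. By list, 3 active zone genes of 12 tested were higher and 1 lower, 6 of 24 vesicle fusion genes higher, and 2 of 10 endocytosis genes higher.

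Between IHCs and OHCs, where 25.4% of all genes were called, few list genes had enough counts. The 1 channel gene tested, Cabp2, a calmodulin-like protein of this channel, was higher in IHCs (1971 ± 152 against 673 ± 137 CPM; edgeR, adjusted p = 8.81e-04). Among 4 endocytosis genes 2 were higher, with the clathrin light chain gene Clta at 1150 ± 17.6 against 382 ± 137 CPM (adjusted p = 0.00101), and Dnm3 was lower, at 0 to 12.3 CPM in IHCs and 564 to 1532 CPM in OHCs (adjusted p = 1.84e-07). The 1 of 6 vesicle fusion genes called was Dnajc5b, which is also a marker used to name the IHCs and is therefore no finding.

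In Ocm-rich against other type I HCs, where 9.41% of all genes were called, list genes were called in both directions. Ppfia4 was 4.26-fold and Rims3 4.12-fold higher in Ocm-rich HCs (58.8 ± 15.9 against 13.3 ± 2.81 and 44.9 ± 21.2 against 9.39 ± 3.06 CPM; edgeR, adjusted p = 9.86e-06 and 1.89e-04), as was Syt7 at an adjusted p of 0.0432. Dnajc5b, a chaperone of vesicles, Sv2b, Nrxn2 and Syt2 were 4.21-fold, 5.73-fold, 4.04-fold and 3.42-fold lower, with edgeR adjusted p-values of 6.99e-08, 7.04e-06, 1.67e-04 and 1.83e-04. Ppfia4, Rims3 and Syt7 passed the low-count filter through their Ocm-rich sums alone. Sv2b, Nrxn2 and Syt2 passed it through the sums of the other type I HCs alone. For these genes, entry into the test largely fixed the direction. By list, 2 of 6 channel genes were lower, 2 of 13 active zone genes higher and 3 lower, 2 of 24 vesicle fusion genes higher and 3 lower, and 1 of 10 endocytosis genes lower.

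Over 70 sums of 1 cell class in 1 library with at least 20 cells each, the genes whose log2(CPM + 1) followed a member most closely were read among 7033 genes. Otof was followed by Xirp2 (r = 0.913), Kncn (0.910), itself a marker used to name HCs, and Gm32742 (0.896), Slc17a8 by Gm34653 (0.835), then Defb25 and Lrrc73 (0.828), and Rims2 by Plppr5 (0.858), Kcnma1 (0.818) and Apba1 (0.804). Pclo was followed by Tmem238 (0.807), Osbpl3 (0.792) and Hook1 (0.789), and Bsn by Cpne9 (0.784), Tomt (0.780) and Nefl (0.779). Cacna1d was followed by Lman2l (0.772), Cacnb2 (0.752) and Abca5 (0.750), and Cacnb2 by Cacna1d (0.752), Abca5 (0.738) and Dach1 (0.697), so that the 2 channel subunits were among each other's closest genes. Ctbp2 was followed by Kdm3a (0.749), Otud3 (0.732) and Fgfr1op (0.730). These are descriptions across sums that share libraries and differ in depth.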

How the data were processed

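The authors deposited raw UMI counts per gene and cell barcode, made with Cell Ranger on mm10. Its version in the file headers is 5.0.1 in replicates 1 and 2 and 6.1.2 in replicates 3, 4 and 5. The members and the lists were chosen with earlier results of these data known. The limits of the study for a cell were kept (200 genes or more, 1000 UMIs or more, mitochondrial UMIs under 25%), and each organ was clustered in Seurat 5.3.0 (2000 variable genes without members and list genes, 30 components, resolution 1, HCs again at 0.5). A cluster was named by at least 3 markers of its class that were in 25% of its cells and raised by a log2 of 1, and HC subclusters by 3 markers in 25% of cells with Adam11 (type I), Sox2 (type II) or Slc26a5 (OHC). The rules that left HC clusters unnamed were set after the clusters were seen. No doublet caller was run; instead the tenth of cells with the most UMIs was left out as an alternative.

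UMIs were summed per library over types with at least 5 cells and tested in edgeR 4.0.16 (TMM, filterByExpr, quasi-likelihood, Benjamini-Hochberg; R 4.3.3), and DESeq2 1.42.0 was an alternative. The test was checked on simulated counts. A gene with enough counts in 1 group alone passed the filter, so its direction was partly set by its entry. Syt1 between the organs and Dnm3 between IHCs and OHCs are examples. Standard errors are the log2 difference over the root of F, and 95% intervals use them with the number of sums less 2 as degrees of freedom. Exact binomial 95% intervals of shares, and the 3 counts that a count of 0 allows, cover counting error only. Besides the members, up to 4 called list genes per direction with the smallest adjusted p, and the 3 genes most alike each member, are named. Some list genes that this rule names are not reported here. Each library pools several mice, so p-values measure the spread between such pools. Within an organ, same-numbered sums are the same library and so the same animals; deviations from the group means of the vestibular types correlated at 0.256, 0.175, 0.248 and 0.225, those of Ocm-rich and other type I HCs at 0.251, 0.225, 0.227 and 0.222, and those of IHCs and OHCs at 0.0356 and 0.160.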

Additional observations from a re-analysis of the deposited data

Results flagged for a closer look

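In 40 groups of 4 libraries, 3 member levels lay far from the other libraries of their group by Dixon's criterion, which chance alone meets in about 1 in 20 groups. All 3 are of replicate 1. Otof in the cHCs of cochlear replicate 1 was 290 CPM (24 UMIs), below the next library at 1577 CPM. In that library IHCs were 7.69% of the named cHCs, the lowest share among the cochlear libraries used. Otof in the type II HCs of vestibular replicate 1 was 3741 CPM, above the next at 2482 CPM, and Ctbp2 in the same cells was 122 CPM (19 UMIs), above the next at 88.4 CPM.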

How the results depend on the processing

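Of the member tests under other settings, 386 kept their direction and their side of the threshold, 7 passed where they had not, 1 no longer passed and 19 changed sign, of which 18 are of values that were never called. The sign changes were Ctbp2 between organs (0.04 with members and lists among the clustering genes, 0.05 at a higher resolution, 0.00 with the mean of replicates 1 and 2, and -0.23 to 0.17 when a replicate was left out), and, between type I and type II, Cacna1d (0.21 with cells typed one by one, -0.40 to 0.00 when a replicate was left out), Bsn (0.37 with cells typed one by one) and Rims2 (-0.03 to 0.22 when a replicate was left out). Between Ocm-rich and other type I HCs they were Slc17a8 (0.71 with cells typed one by one, the only called one), Ctbp2 (-0.01 with members and lists among the clustering genes, -0.10 to 0.27 when a replicate was left out), Pclo (-0.00 without the low-count filter, -0.02 with members and lists among the clustering genes, -0.03 at a higher resolution, -0.22 with cells typed one by one, -0.13 to 0.18 when a replicate was left out) and Rims2 (0.06 without the tenth of cells with the most UMIs, -0.15 to 0.04 when a replicate was left out). The cause was not tested.

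With a replicate left out, the number of genes called ran from 1518 (without replicate 3) to 2681 between organs, from 849 (without replicate 3) to 1510 between type I and type II, from 204 (without replicate 3) to 408 between IHCs and OHCs and from 391 (without replicate 3) to 681 between Ocm-rich and other type I HCs. Between IHCs and OHCs, 440 genes were called, against 687 without the low-count filter, 268 with the replicate block and 180 with at least 20 cells per sum. The replicate block gave 1180 genes between Ocm-rich and other type I HCs and, between organs, where the number alone pairs pools of mice (correlations 0.0333 to 0.119, each library correlating best with its own number), 2274. It changed the call of no member other than Pclo between type I and type II. Otof between organs was also called with cells typed one by one (0.89, edgeR adjusted p = 0.00442) and, in a setting chosen after seeing the data, with the set-aside cochlear cells counted as IHCs (0.74, adjusted p = 0.00806). With cells typed one by one, the IHC to OHC differences grew to 5.07 for Otof and 7.37 for Slc17a8. Thinning to 1000 UMIs moved 10 levels beyond their spread, among them Cacna1d and Pclo in IHCs, to 406 and 161 CPM, where 5 thinned cells stand for replicate 4. Without the low-count filter the median of all genes moved to -0.547 between organs. OHC levels of members other than Cacna1d rest on few UMIs.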

Other observations

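The 99 cochlear cells with HC markers that were set aside (median 9589 UMIs) had means over 4 libraries of 1892 CPM Otof, 1518 CPM Slc17a8, 156 CPM Rims2 and 172 CPM Cacna1d. The 495 set-aside vestibular cells had 895 CPM Otof, 275 CPM Slc17a8 and 81.1 CPM Cacna1d. The cochlear ones entered a comparison only in the setting chosen after seeing the data, and the vestibular ones in none.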
